A study of Homo sapiens with 2 samples.

Results

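The peak-free stretches described here are the long intervals of the human genome in which Flag-tagged ETV4 had no peak in A549 cells. Peaks were ordered along each chromosome, and every interval from the end of 1 peak to the start of the next was taken when it measured 500 kb or more. The members were chosen from the peak positions themselves, so their length and their lack of peaks are a description and support nothing. Of 54366 spacings between 54389 peaks on 23 chromosomes, 551 were members, which is 1.01% of the spacings.

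A549 is an established line of human lung adenocarcinoma cells. Here A549-shETV4 cells, in which a short hairpin RNA lowers the cells' own ETV4, had been transfected with Flag-ETV4, and chromatin bound by the tagged protein was precipitated with a Flag antibody and sequenced. There was 1 anti-Flag IP library and 1 input library. The labels give the antibody as Sigma F1804 whereas the study's methods name another supplier, the input reads were not analysed here, and with a single IP library no difference below has a replicate check.

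ETV4 is a member of the ETS family, transcription factors that hold DNA through a winged helix domain and read a short core, GGAA, most strongly when it stands in the longer sequence CCGGAAGT. ETS sites are common in CpG islands, the CpG-rich promoters of widely used genes. Large parts of chromosomes lack such promoters: centromeres made of satellite repeats, gene deserts, the introns of very long neuronal genes, and clusters of olfactory receptor, defensin or cancer-testis genes that most tissues keep in closed chromatin.

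The promoters below show the sequence at stake. The first 3 are the protein-coding, CpG-rich promoters with CCGGAAGT that lay wholly inside a stretch outside the centromeres, and the fourth is a promoter of the largest olfactory receptor cluster, picked after its values were seen. The fifth is the CDKN2A promoter, which lay under a peak and in no stretch. All are RefSeq sequences on GRCh38.p14, written 5′ to 3′ on the strand of the gene named, and capitals mark CCGGAAGT or its reverse complement ACTTCCGG. The NSUN3 and DHFR2 sequence is the shared promoter between the starts of these divergent genes, with 30 bases of each transcript, at chr3:94062887-94063090 on the plus strand. GTF2H2 is shown at chr5:71067677-71067926 (minus strand), CLN3 at chr16:28492083-28492332 (minus), OR4A16 at chr11:55342951-55343200 (plus) and CDKN2A at chr9:21995325-21995574 (minus).
NSUN3 and DHFR2: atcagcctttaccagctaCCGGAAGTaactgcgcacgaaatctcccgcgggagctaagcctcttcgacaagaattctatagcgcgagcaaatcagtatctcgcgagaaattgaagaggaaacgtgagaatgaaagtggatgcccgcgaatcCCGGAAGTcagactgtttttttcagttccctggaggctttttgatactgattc
GTF2H2: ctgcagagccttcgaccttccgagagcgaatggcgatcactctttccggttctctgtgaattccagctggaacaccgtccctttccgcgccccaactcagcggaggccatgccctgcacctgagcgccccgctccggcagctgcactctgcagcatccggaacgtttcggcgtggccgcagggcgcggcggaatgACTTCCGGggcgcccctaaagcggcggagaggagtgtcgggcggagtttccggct
CLN3: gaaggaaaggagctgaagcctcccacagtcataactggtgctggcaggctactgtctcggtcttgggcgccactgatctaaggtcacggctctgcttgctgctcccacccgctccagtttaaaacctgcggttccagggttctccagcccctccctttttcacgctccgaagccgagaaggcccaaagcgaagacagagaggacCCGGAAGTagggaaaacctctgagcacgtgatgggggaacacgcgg
OR4A16: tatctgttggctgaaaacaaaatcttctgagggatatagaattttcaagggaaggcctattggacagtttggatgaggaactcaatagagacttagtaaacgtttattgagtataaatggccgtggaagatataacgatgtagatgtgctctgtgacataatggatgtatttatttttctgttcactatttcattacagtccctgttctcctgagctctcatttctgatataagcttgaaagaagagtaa
CDKN2A: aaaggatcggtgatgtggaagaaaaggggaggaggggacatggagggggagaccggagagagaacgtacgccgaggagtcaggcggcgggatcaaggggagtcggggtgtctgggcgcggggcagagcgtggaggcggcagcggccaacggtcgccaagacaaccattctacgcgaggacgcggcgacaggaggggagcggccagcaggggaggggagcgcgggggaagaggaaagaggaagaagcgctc
The NSUN3 and DHFR2 promoter carried 2 copies of the motif, 1 near each start, and the nearest peak lay 82.4 kb from the NSUN3 start. NSUN3 encodes an RNA methyltransferase of mitochondria and DHFR2 a second dihydrofolate reductase. GTF2H2, a subunit of the general transcription factor TFIIH, carried 1 copy on the opposite strand, 388 kb from the nearest peak. CLN3, a lysosomal membrane protein, carried 1 copy and lay 174 kb from the nearest peak. OR4A16 held no copy, and 36% of the bases shown were G or C against 66.8% for CDKN2A, which held none either.

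Members ranged from 502 kb to 22.1 Mb, with a median of 674 kb and quartiles of 563 and 923 kb. Together they covered 546 Mb, or 18.5% of the 2947 Mb between the first and last peak of each chromosome. The other spacings were far shorter, with a median of 18.3 kb and quartiles of 4.70 and 53.1 kb. The limit fell on a smooth slope: the spacings just outside it measured 499.179, 499.643 and 499.742 kb, and those just inside 502.306, 502.761 and 502.936 kb. Of the members, 111 reached 1 Mb and 33 reached 2 Mb.

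**Figure D1:**
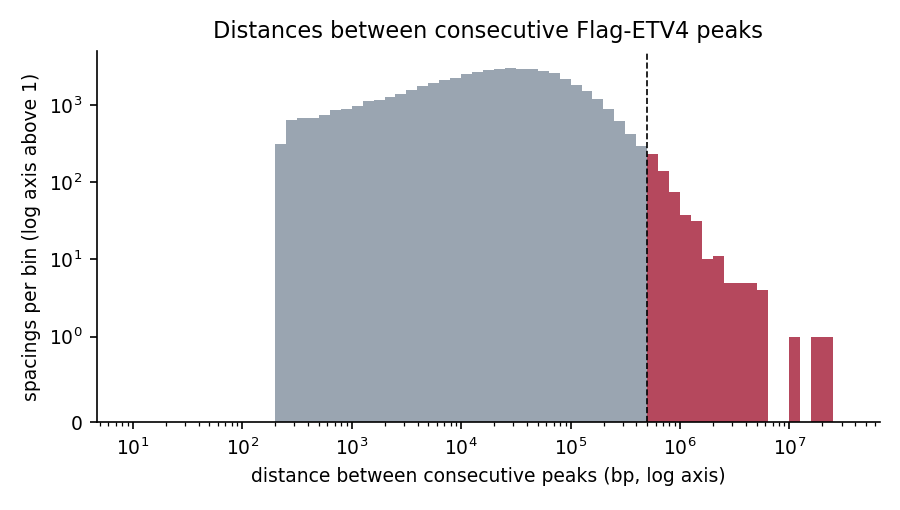
Distances between consecutive peaks in bp on a log axis, with the number of spacings per bin on an axis that is logarithmic above 1. Red bars right of the dashed line at 500 kb are the 551 stretches, which form the falling tail of a single broad distribution centred near the median of 18.7 kb.

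Each stretch was placed in 1 class, taken in order: overlap with a centromere or heterochromatin block, at least 3 genes of 1 family wholly inside (family cluster), no protein-coding gene touched (desert), a single protein-coding gene covering at least 50% of it (long gene), and other. The blocks come from a hand-written list of whole megabases, so assembly gaps elsewhere could not be separated. Centromeres and heterochromatin took 24 stretches but 22.4% of the length (122 Mb). The 3 longest members of all were of this class: 22.1 Mb on chromosome 1 (chr1:121558394-143633979), 18.2 Mb on chromosome 9 (chr9:43313363-61523060) and 12.4 Mb on chromosome 16 (chr16:34050747-46426260). Protein-coding genes were sparse there, at 0.147 per Mb.

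Outside the centromeres 527 stretches remained, with 423 Mb and a median of 665 kb. Deserts were 190 of all 551 (34.5%, 95% Wilson interval 30.6 to 38.5%) and covered 137 Mb. Long genes made up 106 stretches and 78.5 Mb, family clusters 32 stretches and 31.8 Mb, and the mixed remainder 199 stretches and 177 Mb. The family clusters were the densest class in genes, with 11.3 protein-coding genes and 16.2 pseudogenes per Mb. Another 44 stretches (38.0 Mb) lay within 5 Mb of a centromere block, 5 of them on chromosome 9.

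Chromosomes differed widely. On the X chromosome 54 stretches covered 65.3 Mb, 41.9% of its span, and 38.5% remained without the centromere. Outside the centromeres chromosome 13 followed with 26.9% and chromosome 4 with 21.8%. At the other end, chromosome 19 had a single stretch, its centromere, and chromosome 17 had 4 outside the centromere with 3.53% of its span. Chromosomes 19 and 17 are the richest in genes, with 24.9 and 14.1 protein-coding genes per Mb, against 3.55 on chromosome 13 and 4.05 on chromosome 4. The X chromosome did not follow gene density. It holds 5.45 protein-coding genes per Mb, more than the 5.19 of chromosome 2, where stretches outside the centromere took 11.9%. Chromosome 18 did not follow gene density either. It was the poorest in genes of the chromosomes with peaks, at 3.37 per Mb, and its stretches outside the centromere took 16.8%. That is below the 17.8% of chromosome 5 (4.98 genes per Mb) and the 17.2% of chromosome 21 (5.95 genes per Mb).

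The background of the peaks also differed between chromosomes. For each peak the local background that the peak caller had used could be solved from its fold and p-value, and the lowest value found, 1.28 fragments, was shared by 29.0% of all peaks. It was shared by 63.5% of peaks on X and 61.1% on chromosome 13, but by 17.9% on chromosome 19 and 3.39% on chromosome 6. The order was not that of the stretches throughout, since chromosome 22 had 47.6% with 4.73% of its span in stretches outside the centromere, chromosome 10 had 46.4% with 10.2%, chromosome 16 had 44.2% with 7.69%, and chromosome 5 had 15.1% with 17.8%. Copy number, read depth and mappability along the chromosomes were not measured here, and their part in the lengths of the stretches was not tested.

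**Figure D2:**
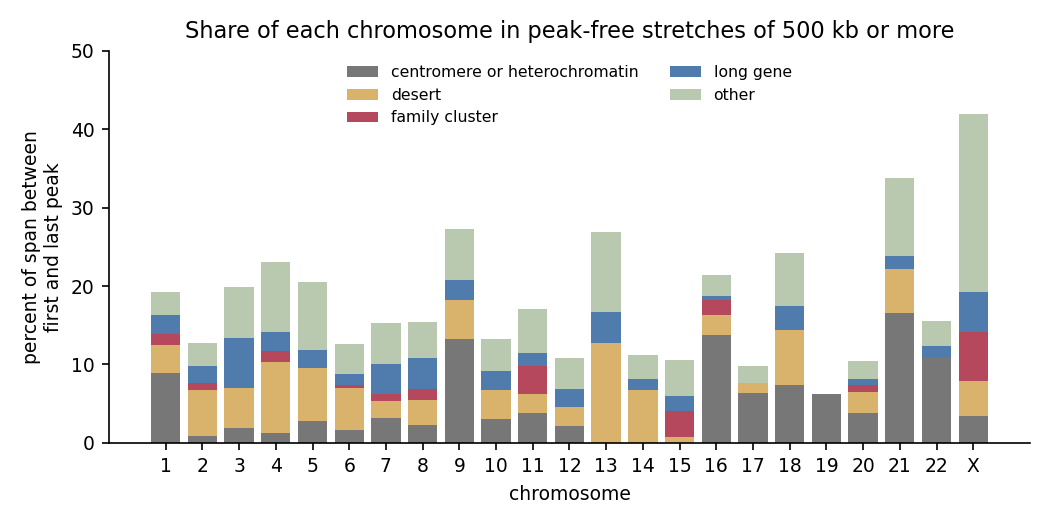
Percent of each chromosome's span between its first and last peak that lay in stretches, by chromosome, with each bar divided by class. X reaches 41.9%, mostly in the class other, whereas the single stretch of chromosome 19 is its centromere.

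The stretches held few protein-coding genes. Of 19970, 659 lay wholly inside (3.30%, Wilson interval 3.06 to 3.56%) and 926 overlapped a stretch (4.64%). That is 1.21 protein-coding genes per Mb inside, against 7.93 per Mb outside. Long non-coding RNA genes were 2.80 per Mb inside and 6.85 outside, and pseudogenes 4.09 and 6.0. By type, 8.40% of long non-coding RNA genes, 13.4% of pseudogenes, 6.33% of miRNA genes and 1.58% of tRNA genes were wholly inside, beside 7.86% of genes of any type. Genes are not independent, since neighbours of 1 cluster enter or leave together, so these intervals cover counting only.

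Counted by stretch, 201 of 551 touched no protein-coding gene (36.5%, 32.6 to 40.6%), 189 touched 1 and 131 touched 2 to 5. Only 30 touched 6 or more, and 23 of these were family clusters. A further count over all gene types found 4 stretches that touched no RefSeq gene. Genes wholly inside were short, with a median length of 7.36 kb against 24.2 kb for all protein-coding genes. The 267 that crossed an edge were long, with a median of 341 kb. A short gene fits more easily inside an interval and a long one more easily crosses an edge. Both medians thus follow in part from these definitions.

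The longest desert measured 1.80 Mb (chr13:67231560-69035745). It touched 25 genes, none protein-coding, and was bordered by peaks with a fold over background of 20.8 and 54.7. Deserts held no protein-coding gene by their definition, but 492 long non-coding RNA genes (3.60 per Mb) and 421 pseudogenes.

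Olfactory receptors had the most genes in the stretches of the families counted. Of 392 protein-coding olfactory receptors, which act in the nose, 110 were wholly inside (28.1%, Wilson interval 23.8 to 32.7%), beside 3.30% of all protein-coding genes. With pseudogenes they were 257 in 17 stretches, and 89 of them lay in 1 stretch of 1.33 Mb on chromosome 11 (chr11:55311223-56643134), whose first and last protein-coding genes were OR4A16 and OR5AP2. A second stretch there, of 2.15 Mb (chr11:48107547-50259903), held OR4B1 to OR4C12 and FOLH1. The other olfactory receptors lay outside, so the family was divided between both kinds of region.

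Several smaller families had most of their protein-coding genes inside, beside 3.30% of all protein-coding genes. The PRAME family, cancer-testis antigens, had 21 of 23 protein-coding members in a single stretch (chr1:12789607-13536816), which also held the HNRNPCL genes. MS4A genes, membrane proteins that include the B cell marker MS4A1 (CD20), had 13 of 16 inside (chr11:59901614-60722853). Defensins, small antimicrobial peptides, had 31 of 45 inside, and with pseudogenes they were spread over 6 stretches. UDP-glucuronosyltransferases of the UGT2 group, which conjugate steroids and drugs in liver, had 7 of 10 inside and all 10 overlapping, with the most in chr4:68945924-69599348. The next stretch (chr4:69638295-70359463) held 7 of 10 casein and salivary protein genes, among them CSN2, STATH and HTN1.

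Immunoglobulin gene segments, which are joined only in B cells, had 56 of 377 inside (14.9%, Wilson interval 11.6 to 18.8%). That is beside 7.86% of genes of any type, and 40 of the 56 lay in the kappa region (chr2:89148422-90033515). T cell receptor segments had 0 of 243 inside (Wilson upper limit 1.56%). Cancer-testis families of the X chromosome (MAGE, GAGE, SPANX, PAGE and others) had 20 of 113 protein-coding genes inside (17.7%, 11.8 to 25.8%). Families known for recent duplication, such as USP17L, FAM90A, AMY and GOLGA8, had 77 of 170 inside (45.3%, 38.0 to 52.8%), with the most in chr4:8919137-9532298. Both shares stand beside 3.30% of all protein-coding genes.

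Several other families of restricted tissues had no protein-coding gene wholly inside, which for the small ones is near the 3.30% of all genes. Keratins (0 of 55, Wilson upper limit 6.53%), taste receptors (0 of 25, 13.3%), late cornified envelope and SPRR genes (0 of 30, 11.4%) and type I interferons (0 of 17, 18.4%) had limits above that share, so a lower share than that of all genes was not detectable. The limits were 3.93% for keratin-associated proteins (0 of 94), 6.76% for clustered protocadherins (0 of 53) and 6.88% for cytochromes P450 (0 of 52), all above it as well. Zinc finger genes, a large family centred on chromosome 19, had 4 of 517 inside (0.774%), namely ZNF479, ZNF716, ZNF705B and ZNF705D. None of 236 housekeeping genes (ribosomal, proteasome and complex I subunits) was inside, which allows a share of up to about 1.27%, taken as 3 of 236. Of these genes, 1 for a mitochondrial ribosomal protein overlapped a stretch. Lung epithelial genes (0 of 26, Wilson upper limit 12.9%) and genes of DNA replication (0 of 38, 9.18%, with 1 overlapping) were too few to show a difference from all genes.

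**Figure D3:**
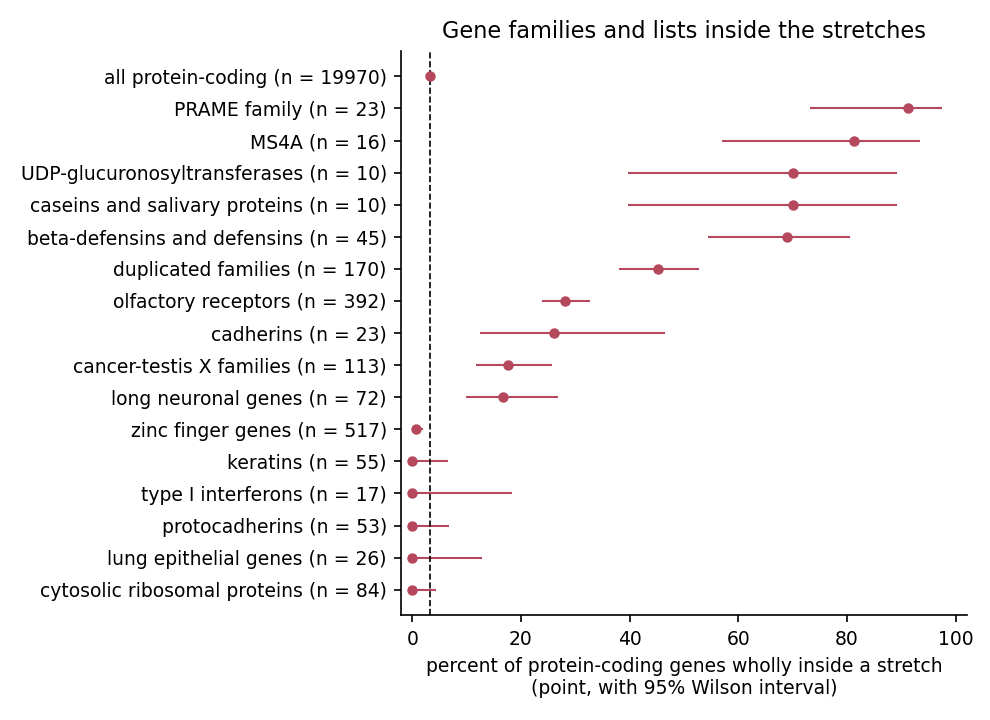
Percent of protein-coding genes of each family or list that lay wholly inside a stretch, with 95% Wilson intervals; the dashed line is the 3.30% of all protein-coding genes. PRAME, MS4A, UGT2, casein and defensin genes sit at 68.9% or more, and zinc finger, keratin, ribosomal and lung epithelial genes at or below the line, with intervals that reach above it for keratin, ribosomal and lung epithelial genes.

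Long genes, many of them receptors and adhesion molecules of neurons, were crossed rather than contained. Of 69 protein-coding genes over 1 Mb, 40 overlapped a stretch (58.0%), beside 4.64% of all protein-coding genes; a longer gene has more chance to meet any interval. Of 72 genes listed as long neuronal genes, by name and not by a length limit, 46 overlapped a stretch and 12 were wholly inside. Among these 12 were CNTN4, NCAM2, CDH18, PCDH17 and SLITRK2, of which PCDH17 measured only 99204 bp and SLITRK2 only 12028 bp. The longest member of the long gene class measured 2.43 Mb (chr3:59569855-61995573) and held all of FHIT, a diadenosine hydrolase at a well known fragile site, together with the start of PTPRG.

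The genes most covered by stretches were picked after their values were seen, and since stretches hold no peak by the rule, their low peak counts are a description that follows from the choice. FHIT (1504 kb), CDH18 (1104 kb) and CNTN4 (959 kb) lay fully in stretches with 0 peaks. PTPRD, a receptor phosphatase of 2299 kb, lay to 99.98% in stretches and held 1 peak. DMD, the dystrophin gene of muscle, lay to 96.1% in stretches and held 3 peaks over 2220 kb.

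Genes of the cadherin family (all CDH symbols), adhesion molecules of epithelia and neurons, had 6 of 23 inside (26.1%, Wilson interval 12.5 to 46.5%). They were CDH6, CDH9, CDH10, CDH11, CDH18 and CDH19. The share stands beside 3.30% of all protein-coding genes. CDH9 and CDH10 lay in the same series of successive stretches (chr5:23012643-29815042), so the members are not independent and the interval covers counting only.

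The longest stretch outside the centromeres was a 4.97 Mb region of the X chromosome (chrX:142942215-147911812). It held 8 protein-coding genes, SPANXN4, SPANXN3, SLITRK4, SPANXN2, SPANXN1, SLITRK2, CXorf51B and CXorf51A. SPANXN genes are expressed in sperm, and the SLITRK proteins act at synapses. The peak on its left had a fold of 9.20 and the one on its right 20.

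The same stretch held a large group of miRNA genes, a cluster known for expression in testis. The RefSeq sequence table listed 20 hairpins there over 1292 kb, of 98 inside any stretch and 1558 in all (6.29%). The 20 listed hairpins give 24 mature names with 23 different seeds (bases 2 to 8), so they are not a set of copies of 1 seed. The gene annotation counted 22 miRNA genes in the stretch, so the hairpin list was not complete. The mature sequences below were picked after the cluster was seen, with the seed in capitals. They show the only pair among the 24 listed names that shares a seed, then 3 others.
hsa-miR-509-5p: uACUGCAGacaguggcaauca
hsa-miR-509-3-5p: uACUGCAGacguggcaaucaug
hsa-miR-506-3p: uAAGGCACccuucugaguaga
hsa-miR-514a-3p: aUUGACACuucugugaguaga
hsa-miR-888-5p: uACUCAAAaagcugucaguca
The first pair shares ACUGCAG, and miR-514a is encoded by 3 hairpins with the same mature sequence.

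The next longest stretches were also poor in genes. On X, 4.01 Mb (chrX:87211207-91222497) held KLHL4, CPXCR1 and TGIF2LX, and 2.87 Mb (chrX:81629525-84501897) held POU3F4, CYLC1 and RPS6KA6. A further 2.68 Mb (chrX:33784990-36462063) held FAM47A, TMEM47, FAM47B, MAGEB16 and CFAP47, and 2.24 Mb (chrX:25216397-27451884) held MAGEB18, MAGEB6B, MAGEB6 and MAGEB5. On the autosomes, 2.56 Mb on chromosome 11 (chr11:96390816-98955726) touched only JRKL, 2.39 Mb on chromosome 7 (chr7:8472800-10860674) only NXPH1, and 2.27 Mb on chromosome 5 (chr5:25527786-27798926) held CDH9. Of the 10 longest outside the centromeres, 5 lay on X.

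Stretches often lay side by side. In 79 places a single peak was all that parted neighbouring members, and these formed 61 runs with 140 stretches. In 11 runs 3 or more members followed each other. The longest of these spanned 10.02 Mb of X (chrX:86667653-96684322) with 6 stretches and 5 peaks between them, whose folds were 9.63, 6.57, 5.69, 3.07 and 5.69. It held 7 protein-coding genes, KLHL4, CPXCR1, TGIF2LX, PABPC5, PCDH11X, NAP1L3 and FAM133A. On chromosome 5 a run of 6 stretches over 6.80 Mb (chr5:23012643-29815042) held PRDM9, the meiotic recombination factor, CDH10 and CDH9. On chromosome 11 a run of 3 stretches over 8.54 Mb (chr11:48107547-56643134) joined both olfactory receptor clusters across the centromere and held 59 protein-coding genes.

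The borders of the runs differed. The 2 Mb before the chromosome 11 run held 71 peaks and the 2 Mb after it 62. Around the 10.02 Mb run of X the same windows held 9 and 5 peaks, and around the chromosome 5 run 9 and 7.

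**Figure D4:**
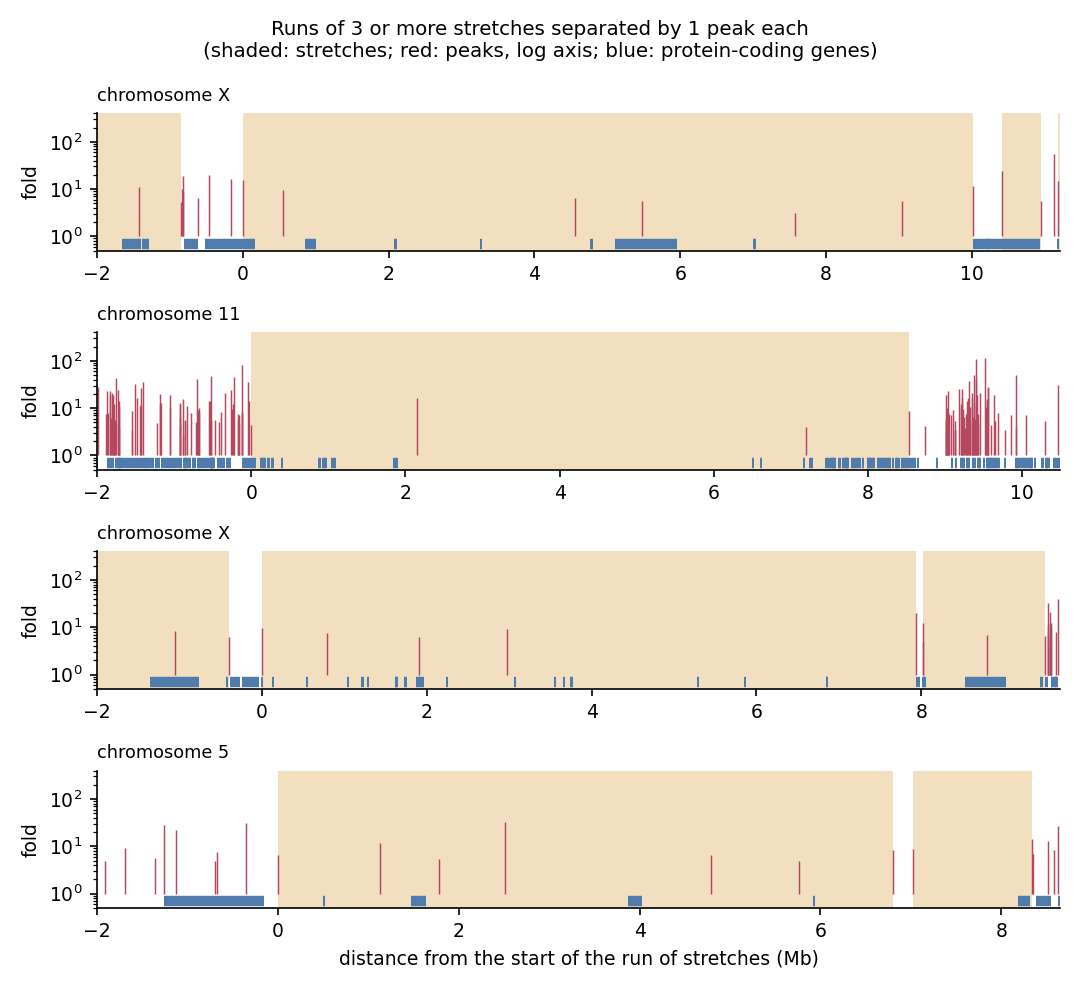
The 4 longest runs of 3 or more stretches with 2 Mb on either side, by distance in Mb from the start of the run. Shaded areas are stretches, red lines peaks with their fold on a log axis, and blue bars protein-coding genes; the chromosome 11 run ends in dense peaks on both sides (71 and 62), the X and chromosome 5 runs in sparse ones.

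The peaks that bordered the stretches were nearly as high as the rest. The 1023 edge peaks had a median fold of 9.36 against 9.63 for all peaks and a median height of 23 fragments against 26. They were narrower, with a median of 448 bp against 519 bp. The lowest background value was shared by 47.9% of them, beside 29.0% of all peaks. Within 1 kb of a promoter start lay 12.9% of edge peaks (Wilson interval 10.9 to 15.2%) and 22.7% of all peaks, with chromosome 8 left out since its promoters were not used here. The promoters used cover 15811 of 19970 protein-coding genes, so peaks at the starts of the others were not counted. Beyond an edge the next spacing had a median of 127 kb (quartiles 37.9 and 316 kb, n = 1100). At the 79 peaks with a stretch on both sides the next spacing is itself a member, of 500 kb or more by the rule. The median is thus partly set by the choice of members, and its value without them was not computed.

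Among the edge peaks, 79 stood alone with a stretch on both sides. Their median fold was 9.63 and their median width 416 bp, 63.3% had the lowest background value, and 5.41% lay near a promoter start. Some were very high. The highest, next to HDX (chrX:84501898-84502928), had a fold of 145 and 330 fragments (95% Poisson interval 295 to 368, counting error only), with 2.87 Mb free of peaks before it and 741 kb after it. The HDX peak was not counted as near a promoter start, although it lay 9 bases from the gene. The next highest were on chromosome 22 (chr22:12637121-12638305, fold 88.6, beside centromeric sequence) and chromosome 2 (chr2:82890984-82891639, fold 77.1).

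Promoters inside the stretches were poor in CpG. Windows of 300 bases, 250 before and 50 after the start, were available for 34961 promoters of RefSeq genes, 22131 of them protein-coding and none on chromosome 8. The protein-coding windows belong to 15811 of the 19970 protein-coding genes. A window was called CpG-rich when its observed over expected CpG was over 0.6 and its GC over 50%. Of 704 protein-coding promoters inside, 166 were CpG-rich (23.6%, Wilson interval 20.6 to 26.9%), beside 59.9% of all. With promoters of non-coding genes included, 279 of 1799 inside were CpG-rich (15.5%), beside 46.9% of all. The median observed over expected CpG of protein-coding windows was 0.315 inside and 0.738 over all, and the median GC 46.7% and 62.3%. Promoters inside carry no peak by the rule, whereas all promoters include those with one. Peaks lay more often at CpG-rich promoters, so a lower share inside follows in part from the choice of stretches. Promoters without a peak outside the stretches were not compared.

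**Figure D5:**
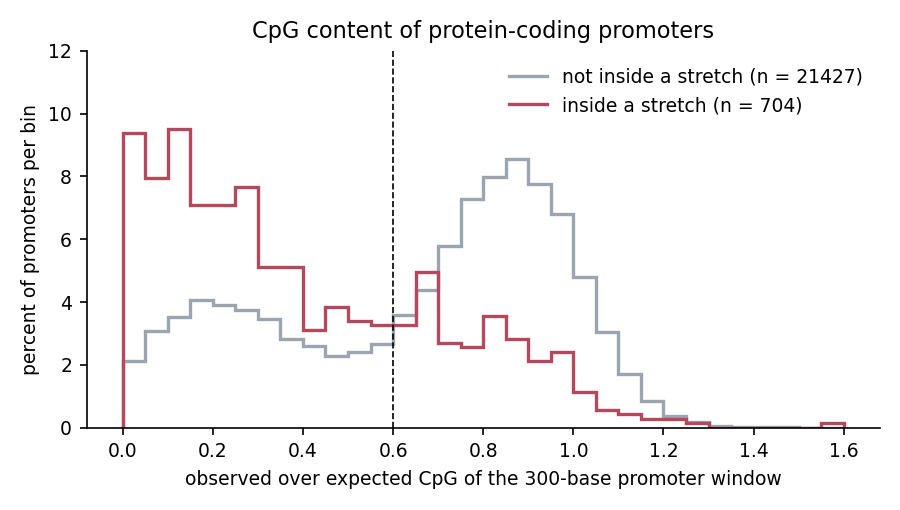
Observed over expected CpG of protein-coding promoter windows, as percent of promoters per bin, for 704 promoters inside stretches (red) and 21427 others (grey). The dashed line is the limit of 0.6; 23.6% of those inside are CpG-rich (which also asks for GC over 50%), and the grey line peaks to the right of the limit.

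The full ETS motif was rarer as well. CCGGAAGT or its reverse complement stood in 14 of 1799 promoters of any type inside (0.778%, 0.464 to 1.30%), beside 4.14% of all promoters. Protein-coding promoters held it in 8 of 704 windows inside (1.14%), beside 5.34% of all. Among CpG-rich promoters only, the shares were 2.15% (0.989 to 4.61%) and 7.76%. The bare core GGAA, on either strand and also part of the longer motif, stood in 95.1% of promoters inside and 95.5% of all. So short a core stands in nearly every window, so this comparison could hardly have set the groups apart. The limit given for CpG holds here too, since promoters inside carry no peak by the rule and all promoters include those with one. A match is a description of letters in this window and not a bound site.

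Most CpG-rich protein-coding promoters had a peak close by, with those inside the stretches counted in. A peak lay within 1 kb of the start of 83.7% of all CpG-rich protein-coding promoters, of 93.3% of those that also held CCGGAAGT, and of 26.4% of the other protein-coding promoters. The 166 inside the stretches belong to 138 genes and lay a median of 179 kb from the nearest peak. Of these, 114 were 100 kb or more away, and 7 lay within 5 kb of an edge. Among all 13248 CpG-rich protein-coding promoters used here, which leave out chromosome 8, 250 were 100 kb or more away. A stretch holds no peak and measures 500 kb or more by the rule, so these distances largely restate its length and are a description.

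The distances differed widely between genes, and by the rule they depend on the length of the stretch and the place in it. POU3F4, a factor of the inner ear, lay 994 kb from the nearest peak, TMEM47 872 kb, CNTN4 766 kb and NOX4, an oxidase of kidney, 643 kb. Among developmental transcription factors were SIM1 (416 kb), DMRT1 (322 kb) and SOX3 (254 kb). These and the following genes were picked after their values were seen. PTPRG, a receptor phosphatase, lay 434 kb away, ZWINT, a kinetochore protein, 178 kb, ESD, an esterase, 178 kb, FOXP1, a transcription factor, 130 and 649 kb for its 2 CpG-rich promoters, CRBN, the target of thalidomide, 52.2 kb, and DEPDC1 37.1 kb.

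Repeated sequence was more common in the stretches. A run of 100 bases shared with a promoter over 1 kb away was found in 2.12% of all promoters and in 10.9% of those inside (196 of 1799, 9.54 to 12.4%). By class the share was 31.8% in centromeres and heterochromatin, 23.3% in family clusters, 8.87% in the class other, 5.11% in deserts and 1.52% in long genes. The window of GTF2H2 was one of these, and those of NSUN3, DHFR2 and CLN3 were not. Reads from such copies cannot be placed with certainty, and the part of this in the missing peaks was not tested. Without repeated windows and centromeres, 135 CpG-rich protein-coding promoters of 111 genes remained inside, 22 of these genes on X and 14 on chromosome 3. Repeats were sought only among the 34961 promoter windows used, none on chromosome 8. Copies elsewhere in the genome were not looked for, so these 111 genes may still include duplicated sequence.

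No stretch could be assigned to a deleted segment, since input reads were not analysed here. CDKN2A, the cell cycle inhibitor at chromosome band 9p21, is widely recorded as lost from both copies in A549 cells, but in these data it was not in a stretch. A peak with a fold of 45.6 and 122 fragments covered its promoter (chr9:21993310-21996273). CDKN2B had peaks with folds of 10.8 and 23.2, and MTAP had 5 peaks with folds of 18.2, 13.6, 12.3, 20 and 22.9. In all, 8 peaks lay over these 3 genes, the longest spacing around CDKN2A measured 77.0 kb, and 0 of 15 protein-coding genes of the region were inside a stretch. Why the deposited peaks include this locus was not tested. Of 20 other tumour suppressor genes FHIT alone was wholly inside (5.0%, Wilson interval 0.888 to 23.6%), near the 3.30% of all protein-coding genes. Of the 20, 7 overlapped a stretch, beside 4.64% of all protein-coding genes. A longer gene has more chance to meet any interval, and gene lengths were not matched here. Genes that crossed an edge had a median length of 341 kb against 24.2 kb for all.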

How the data were processed

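Chromatin from A549-shETV4 cells carrying Flag-ETV4 was precipitated with a Flag antibody and sequenced (1 IP, 1 input). The authors deposited 1 list of peaks on hg38. Submitters' processing notes name Bowtie2 2.4.1, SAMtools, MACS2 2.2.7.1 and deepTools 3.5.0, with no settings or roles given in the sources used here. For each peak the authors deposited its position, a fold enrichment (a ratio to local background, with a pseudocount of 1), a −log10 p-value and q-value, and a whole-number score, which was not used. Fragment heights and background were solved from fold and p-value, and all peaks came out within 0.00914 of a whole number. They were not measured from reads, and total read depth is unknown.

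Stretches were taken between the end of a peak and the start of the next. Genes, promoters and miRNAs came from RefSeq (GRCh38.p14). A gene was inside only with both ends in the stretch. Centromere blocks were a hand-written table of whole megabases. Stretches named are the 10 longest outside centromeres, the longest of each class, and for each family the one with most of its genes. Genes named are all protein-coding ones where there were 6 or fewer, otherwise the first, last or listed ones. Other names were chosen after their values were seen. Members, lists and rules were chosen with earlier results of these data known. No test across groups was run, since there is 1 IP library. Intervals are 95% Wilson or exact Poisson intervals and cover counting error only. The limit for housekeeping genes is instead 3 divided by their number. The steps were tested on simulated peaks with known stretches and heights. Computation used scipy 1.17.1, pandas 2.3.3 and numpy 2.4.6 under Python 3.11.15, and figures matplotlib 3.10.9.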

Additional observations from a re-analysis of the deposited data

How the results depend on the processing

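Of 47 alternative values, 24 stayed close to the reported ones (counts and lengths within 1.5 times, shares within their Wilson interval) and 23 moved. At 250 kb there were 1903 stretches over 1002 Mb, with 6.81% of protein-coding genes inside, 703 stretches without one, 68 family clusters and 193 olfactory receptors. At 1 Mb there were 111 stretches over 255 Mb, with 0.971% of protein-coding genes inside, 28 stretches without one, 8 family clusters, 54 olfactory receptors and 18.1% CpG-rich promoters. With only peaks of a fold over 5, 629 stretches held 4.0% of protein-coding genes, and 550 of the 551 lay within one of them. With only peaks at −log10 q of 10 or more, 767 stretches held 5.56% of protein-coding genes, 52 family clusters and 18.3% CpG-rich promoters, and all but 2 of the 551 lay within one. Dropping peaks can only keep or lengthen a peak-free interval between the peaks that remain. Both counts of members lying within a new stretch thus follow from the filter and support nothing. From summit to summit 18.1% of promoters were CpG-rich. Counting any overlap gave 4.64% of protein-coding genes, counting genes of any type left 4 stretches without one, and a CpG limit of 0.75 gave 10.2% of promoters. The shorter motif CCGGAAG stood in 3.06% of promoters inside and GGAA in 95.1%.

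No paired analysis was possible because there is 1 IP library and the input library was not analysed here. Sequencing depth, mappability and copy number were not measured, so a lack of peaks is a lack of calls in 1 library and not a measured lack of binding. The centromere table is rounded to whole megabases, and chromosome 8 promoters were not used here.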
